A study of Mus musculus with 22 samples.

Results

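The insulin-like growth factor (IGF) axis genes described here are 9 of the 19721 genes listed in at least 1 library: the ligand Igf1 (Entrez gene ID 16000), the receptors Igf1r (16001) and Igf2r (16004), the adaptor Irs4 (16370), the binding proteins Igfbp2 (16008), Igfbp3 (16009), Igfbp4 (16010) and Igfbp5 (16011), and the related protein Igfbp7 (29817). They were chosen by symbol and by no threshold on a measured value, but with earlier results of these data known. Shares of members set beside shares of all genes are therefore descriptive. All 9 passed the filter on low counts in every fit. RNA came from mouse embryonic stem (ES) cells of the J1 line and from embryoid bodies (EBs), the cell clusters in which such cells differentiate into tissues of all germ layers. EBs received TBBPA (tetrabromobisphenol A, a flame retardant that carries bromine) at 10 nM or at 100 nM, or the vehicle DMSO (dimethyl sulfoxide, 0.1%). On days 4, 9, 12, 18 and 28, written D4 to D28, there was 1 library with 10 nM TBBPA, 1 with 100 nM TBBPA and 2 with DMSO, and 2 more libraries came from untreated ES cells, 22 in all. Nothing in the labels tells whether the libraries of a group are from separate cultures of this 1 cell line, and p-values then measure the spread between these libraries, which may be technical.

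IGF1 and IGF2 are secreted hormones that act through the IGF1 receptor, a tyrosine kinase encoded by Igf1r, and its insulin receptor substrate (IRS) adaptors to the PI3K and AKT kinases. Igf2r encodes a receptor without kinase activity, which carries IGF2 and mannose-6-phosphate-tagged enzymes to lysosomes. In serum and in the matrix around cells, IGFs are held by the IGF binding proteins (IGFBPs), which can limit or prolong their action and are cleaved by proteases such as PAPP-A. Igfbp7 codes for a secreted protein that shares part of the IGFBP fold and binds IGFs weakly. The axis is a main regulator of growth in the mouse embryo.

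Total expected counts, the authors' estimates of reads per gene, were 18158583 to 18998141 per library, and 16427 to 17816 genes were listed. Levels are CPM, counts relative to the scaled library size, except where FPKM, which also divides by transcript length, is named. The 2 ES libraries differed from each other more than any other pair, with a mean chi-square per gene of 22.5, against 1.63 to 3.38 between the DMSO libraries of a day. Summed CPM of 6 pluripotency markers was 5564 and 6032 in ES cells and 1593 and 1646 in D4 EBs with DMSO, although the source label of the ES libraries reads embryoid body, as for the others. A gene is said to rise or fall where its adjusted p was under 0.05 in edgeR's quasi-likelihood test, with the Benjamini-Hochberg adjustment over all genes tested. Log2 changes are given ± SE, and levels as mean ± SD (n = 2).

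In ES cells the transcripts of the axis were mainly Igfbp2 and Igf2r, with lower CPM of Igfbp4, Igf1r and Igfbp7. Little or no Igf1, Irs4, Igfbp3 or Igfbp5 was present there. Over the 28 days of control development the axis moved to a state with Igf1 and all 5 binding protein genes at their highest levels of the course. Irs4 was high at D4 and D9 only. Igf2r peaked at D12, while Igf1r was near its highest level at D12, D18 and D28. The plot of all libraries shows these courses.

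**Figure D1:**
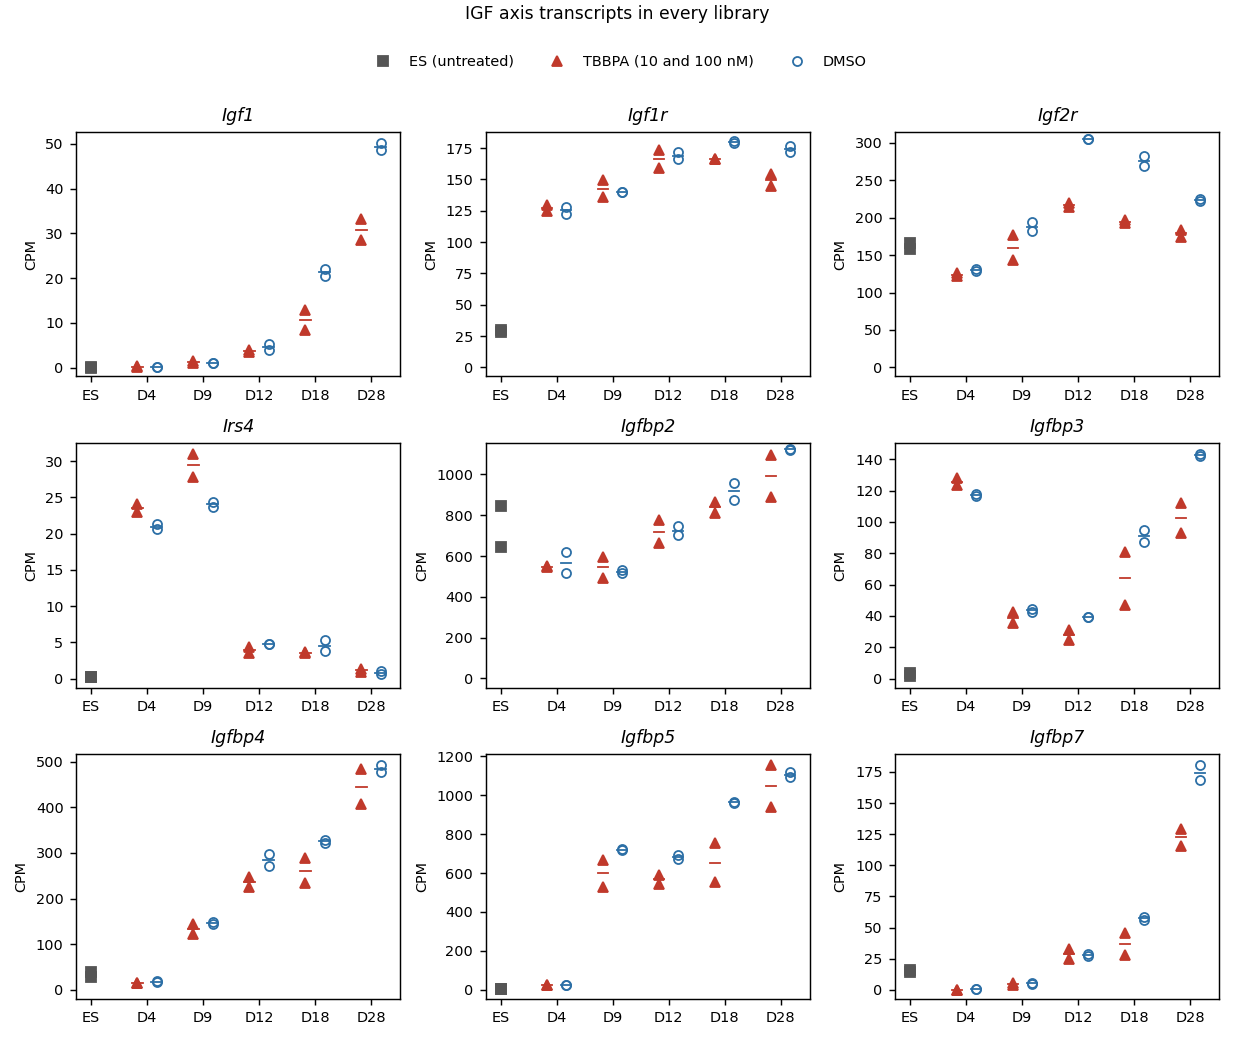
CPM of the 9 genes in every library (1 panel per gene, linear axes), with ES cells as squares, TBBPA EBs as filled triangles (1 library of 10 nM and 1 of 100 nM per day), DMSO EBs as open circles, and short lines at the mean of each pair. Igf1 with DMSO reached 48.5 and 50.2 CPM at D28, where the 2 TBBPA libraries were at 33.1 and 28.4 CPM.

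Igf1, the ligand, was close to the limit of detection at first. It had 1 and 0 counts in the 2 ES libraries and 3 and 2 counts in the D4 DMSO libraries. CPM with DMSO was then 1.08 and 1.07 at D9, 3.92 and 5.17 at D12, 20.6 and 22.02 at D18, and 48.5 and 50.2 at D28. The libraries of each day from D9 on were above all libraries of earlier days. At D4 the summed counts were 5 with DMSO against 1 in ES cells, a ratio of 4.93 with a 95% counting interval of 0.552 to 233, and Igf1 did not pass there. It rose at every later step, by 2.78 ± 0.46 on the log2 scale at D9 over D4 (adjusted p = 0.000126), 2.09 ± 0.22 at D12 over D9 (8.44e-06), 2.23 ± 0.14 at D18 over D12 (2.75e-08) and 1.21 ± 0.11 at D28 over D18 (9.86e-07). The first of these rises rests on 40 against 5 counts (ratio 7.14, 95% counting interval 2.82 to 23.2), and did not pass in limma on log2(FPKM + 1), where the change was 0.17.

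Igf2, the other ligand, is no member and was added after its values were seen. With DMSO it averaged 7.49 ± 2.77 CPM in ES cells, 27.0 ± 0.8 at D4, 2064 ± 37 at D9, 2675 ± 76 at D12, 3957 ± 73 at D18 and 4474 ± 265 at D28. Igf2 rose at each step up to D18, and by 6.25 ± 0.13 on the log2 scale at D9 over D4 (adjusted p = 1.07e-12).

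Igf1r, the signalling receptor, was at 30.1 and 28.3 CPM in ES cells and at 122 and 128 CPM at D4. It then lay at 140 and 140 CPM at D9, 166 and 172 at D12, 180 and 179 at D18 and 172 and 177 at D28 with DMSO. The D4 libraries were far above both ES libraries, and later steps were small. The log2 change was 2.10 ± 0.06 at D4 over ES (adjusted p = 1.75e-12), 0.16 ± 0.05 at D9 over D4 (0.0213) and 0.29 ± 0.05 at D12 over D9 (0.000996). The step at D9 did not pass in DESeq2 or without D4 DMSO library 1, D9 DMSO library 1 or D9 DMSO library 2 (adjusted p up to 0.132), and it is near the size by which scaling on library size alone moved the median of all genes there (0.152 in place of 0.0113), under which the change was 0.30. Neither D18 over D12 nor D28 over D18 passed.

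Igf2r, the clearance receptor, had 158 and 166 CPM in ES cells, 129 and 132 at D4, 194 and 182 at D9, 305 and 306 at D12, 283 and 270 at D18 and 222 and 225 at D28 with DMSO. No pair overlapped that of the neighbouring stage. It fell by 0.31 on the log2 scale (SE 0.06) at D4 over ES (adjusted p = 0.000206), rose by 0.52 ± 0.06 at D9 (1.68e-06) and 0.72 ± 0.05 at D12 (4.82e-07), and fell by 0.31 (SE 0.05) at D28 over D18 (0.000278). In the GENCODE annotation Igf2r is overlapped on the opposite strand by Airn, a long noncoding RNA. Whole gene spans were compared, not exons. Since the sources used here do not state whether counting used strand, reads from any stretch that both genes cover cannot be told apart. The same holds for Igf1 and Igf1os, Irs4 and Gm15295, and Igfbp7 with Polr2b and Gm34648.

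Irs4, an adaptor of the insulin and IGF1 receptors, was present in a window. It had 3 and 3 counts in ES cells, against 342 and 354 at D4. CPM with DMSO was 20.6 and 21.3 at D4, 23.7 and 24.4 at D9, 4.84 and 4.76 at D12, 5.26 and 3.87 at D18, and 1 and 0.657 at D28. All 4 libraries of D4 and D9 were above all other control libraries. The ratio of summed counts at D4 over ES was 114 (95% counting interval 52.3 to 313, 696 against 6 counts). Irs4 rose at that step (adjusted p = 3.55e-11), fell by 2.31 (SE 0.15) on the log2 scale at D12 over D9 (1.07e-07), and fell by 2.45 (SE 0.23) at D28 over D18 (8.53e-07).

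Igfbp2, a binding protein of the embryo and of many adult tissues, had 643 and 846 CPM in ES cells, 515 and 619 at D4, 517 and 531 at D9, 745 and 704 at D12, 877 and 957 at D18 and 1122 and 1123 at D28 with DMSO. The ES pair is wide, and its lower library is close to the higher D4 library. Igfbp2 fell at D4 over ES (-0.40 ± 0.12, adjusted p = 0.0118), rose at D12 over D9 (0.48 ± 0.12, 0.00874) and rose at D18 over D12 (0.35 ± 0.12, 0.0358). None of these 3 calls held in every fit: the first was lost without ES library 2, where the change was -0.18 (adjusted p = 0.139), without D4 DMSO library 1 (0.112) and in a fit of the compared libraries alone (0.0732), the second without library 1 of either day (up to 0.0626), and the third without any 1 of the 4 libraries (up to 0.188) or without the filter (0.0548).

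Igfbp3 codes for the main IGF carrier of serum in the adult. Its course had 2 high phases, with 3.80 and 1.88 CPM in ES cells, 116 and 118 at D4, 44.3 and 42.8 at D9, 39.3 and 39.3 at D12, 87.3 and 95.01 at D18, and 142 and 143 at D28. The D9 and D12 libraries lay below all later and D4 libraries. The gene rose by 5.36 ± 0.15 on the log2 scale at D4 over ES (adjusted p = 1.85e-12), fell by 1.43 (SE 0.10) at D9 (3.40e-08), and rose by 1.22 ± 0.10 at D18 over D12 (5.96e-07) and 0.64 ± 0.09 at D28 over D18 (6.57e-05).

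Igfbp4 and Igfbp5, whose products bind IGFs in the tissue and are both substrates of PAPP-A family proteases, rose together at D9. Igfbp4 had 28.8 and 39.7 CPM in ES cells, 16.7 and 18.4 at D4, 145 and 148 at D9, 297 and 271 at D12, 322 and 329 at D18 and 477 and 493 at D28. Igfbp5 had 5.76 and 2.86 CPM in ES cells, 26.3 and 25.0 at D4, 723 and 719 at D9, 671 and 694 at D12, 962 and 965 at D18 and 1094 and 1119 at D28. At D9 over D4 the log2 change was 3.06 ± 0.12 for Igfbp4 (adjusted p = 3.02e-10) and 4.81 ± 0.12 for Igfbp5 (8.76e-12), the largest change of a member at that step. The genes differed before that step, where Igfbp4 fell by 0.96 (SE 0.13) at D4 over ES (2.35e-05) and Igfbp5 rose by 2.57 ± 0.17 (4.88e-08). Later, Igfbp4 rose at D12 (0.97 ± 0.10, 1.50e-05) and D28 (0.57 ± 0.09, 0.000267), and Igfbp5 at D18 (0.51 ± 0.10, 0.00143), though not in limma on log2(FPKM + 0.1) (0.0664).

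Igfbp7 was the only member that dropped to under 1 CPM after the ES stage and then returned. It had 14.2 and 16.2 CPM in ES cells, 0.542 and 0.421 at D4, 4.84 and 5.57 at D9, 28.6 and 27.4 at D12, 55.8 and 58.8 at D18 and 168 and 180 at D28. The D4 value rests on 16 counts against 498 in ES cells, a ratio of 0.0317 (95% counting interval 0.018 to 0.052). Igfbp7 fell at that step (adjusted p = 2.60e-11) and rose at each later one, by 3.42 ± 0.23, 2.44 ± 0.10, 1.04 ± 0.08 and 1.60 ± 0.07 on the log2 scale at D9, D12, D18 and D28 (adjusted p of 1.48e-08 or lower except at D18, 1.99e-07).

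Counted by step, 8 of 9 members changed at D4 over ES (4 higher and 4 lower), where 62.3% of all 16203 genes tested were called, 31.9% higher and 30.3% lower. At D9 over D4, 7 changed (6 higher, 1 lower), against 60.8% of all genes (31.9% higher, 28.9% lower). At D12 over D9, 7 changed (6 higher, 1 lower), against 33.1% (17.5% higher, 15.6% lower). At D18 over D12, 5 rose and none fell, against 37.7% (20.7% higher, 17.1% lower), and at D28 over D18, 4 rose and 2 fell, against 53% (24.9% higher, 28.1% lower). The median log2 change of the 9 members was 2.07, 0.52, 0.48, 0.35 and 0.29 at these steps in turn, and that of all genes lay between -0.032 and 0.011. The median of 2.07 at D4 over ES is the value of Igf1, which did not pass there and rests on 5 against 1 counts. It lies between 4 members that rose and 4 that fell, and so describes no common rise. More members rose than fell at each step from D9 on. Rises made up 52.5%, 52.8%, 54.8% and 46.9% of the calls over all genes at these 4 steps, and 64.6%, 65.6%, 62.2% and 50.3% with scaling on library size alone, while DESeq2 size factors gave 60.5% at D12 over D9.

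Per transcript length, the order of the members changed with the stage. In ES cells Igfbp2 led with 519 and 664 FPKM, followed by Igf2r (15.3 and 16.1), Igfbp4 (12.3 and 16.8) and Igfbp7 (11.4 and 12.8), whose pairs overlapped their neighbours in this order. At D4 Igfbp3 was second with 42.3 and 43.0 FPKM. At D9 Igfbp5 (121 and 120) and Igfbp4 (69.1 and 70.9) followed Igfbp2 (459 and 472). At D28 the order with DMSO was Igfbp2 (mean 1050 FPKM), Igfbp4 (257), Igfbp5 (205), Igfbp7 (173), Igfbp3 (63.5), Igf2r (27.0), Igf1r (16.4), Igf1 (7.58) and Irs4 (0.14), and no neighbouring pairs met in range. Igf1 was last at every stage up to D12.

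**Figure D2:**
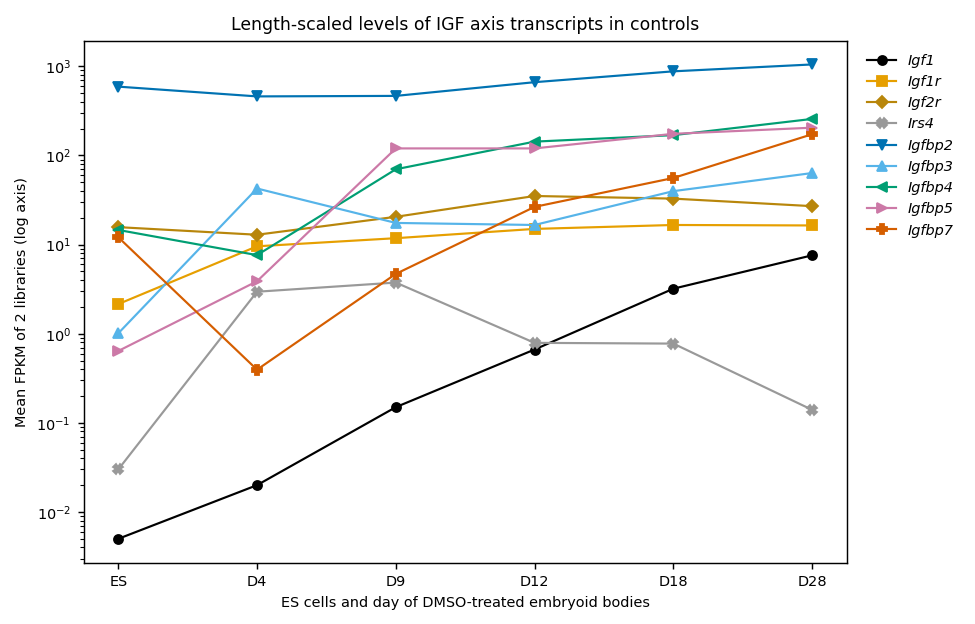
Mean FPKM (log axis) of each gene in ES cells and in DMSO EBs from D4 to D28, each point the mean of 2 libraries. Igfbp2 is the highest line throughout, and Igf1 climbs from 0.005 FPKM in ES cells to 7.58 at D28.

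Of 37 other genes of insulin and IGF signalling, 36 were in the tables (all but Ins1) and 35 were tested. Over all genes, 62.3% were called at the step to D4, 60.8% to D9, 33.1% to D12, 37.7% to D18 and 53% to D28. At D4 over ES, 12 of the pathway genes rose and 11 fell. Irs2, an adaptor, rose to 87.6 ± 5.7 CPM at D4, against 10.6 ± 0.5 in ES cells (3.05 ± 0.08), and Grb10, an adaptor that restrains the receptors, fell to 9.93 ± 0.86 CPM, against 47.0 ± 1.3 (-2.24 ± 0.08). At D9 over D4, 22 rose and 8 fell, among them Pappa, which encodes the protease PAPP-A, at 40.2 ± 0.04 against 0.181 CPM (7.74 ± 0.22), and Grb10, at 101 ± 1 against 9.93 ± 0.86 CPM (3.35 ± 0.08). The D4 value of Pappa rests on a summed count of 6, so the size of its rise is loosely known. At D12 over D9, 11 rose and 7 fell, among them Igfbpl1 and Igfbp1, further genes of the binding protein family (1.99 ± 0.13 and 1.82 ± 0.13), and Pappa2, a second IGFBP protease gene, at 6.05 ± 0.42 against 0.645 ± 0.078 CPM (3.23 ± 0.27). At D18 over D12, 7 rose and 8 fell, and at D28 over D18, 7 rose and 12 fell. Htra1, a secreted protease that cleaves IGFBPs, had 24.4 ± 0.4 CPM at D12, 58.6 ± 1.6 at D18 and 205 ± 2 at D28, and rose at both of these steps (1.27 ± 0.10 and 1.80 ± 0.09). The adjusted p of each gene named was 3.22e-07 or lower, except for Pappa2 (1.34e-06).

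Across the 22 libraries, the log2 CPM most like that of Igf1 among 11774 genes was that of Col5a2, a fibrillar collagen gene (Pearson r = 0.994). For Igfbp4 it was Col5a1 (0.994), for Igfbp5 Kitl, the ligand of the KIT receptor (0.997), for Igfbp3 Prickle1 (0.973), for Igfbp7 Ppp1r3b (0.986) and for Igfbp2 Trim47 (0.960). Igf1r was closest to Fbxl20 (0.990), Irs4 to Gmfb (0.955), ahead of Lin28a (0.946), an RNA-binding protein of early embryonic cells. Igf2r had the weakest best match, Adgrf5 at 0.899. Among the members themselves, r ran from -0.747 (Irs4 and Igfbp2) to 0.914 (Igf1 and Igfbp4). These values describe 22 libraries that share 1 course in time.

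With TBBPA, no member changed at D4 or D9, and the changes that passed from D12 on were all falls. Igf2r fell at D12, Igf1, Igf2r, Igfbp5 and Igfbp7 fell at D18, and Igf1, Igf1r and Igf2r fell at D28. Each comparison sets the 10 nM and the 100 nM library, taken as a pair, against the 2 DMSO libraries of the day. The spread within a TBBPA pair, and each SD, SE and p-value that uses it, thus mixes any dose difference with that between libraries. These are bulk libraries, in which fewer cells of a type and less RNA per cell cannot be told apart.

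At D4, 0 of 9 members were called (0 at an unadjusted p under 0.05, 0 in DESeq2, and 1, Igfbp7, in limma on log2(FPKM + 0.1)), against 0.458% of 16383 genes tested. At D9, 0 were called as well (2 at an unadjusted p under 0.05, Igf2r and Irs4, and 0 in DESeq2 or limma), against 2.34% of all genes. Without the 10 nM library, Igf2r passed at D9 (-0.39, adjusted p = 0.00335). Members with both TBBPA libraries below both DMSO libraries numbered 4 at D4 and 4 at D9, and 2 and 1 had both above, where 22.9% and 23.5% of all genes lay below and 21.7% and 24% above. Igf2r was at 177 and 143 CPM with 10 and 100 nM TBBPA at D9, against 194 and 182 CPM with DMSO. Igfbp7 at D4 had 2.02 and 3.01 counts with TBBPA against 9.01 and 7.03 with DMSO, and did not pass in edgeR.

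Igf2r was the 1 member below both DMSO libraries in both TBBPA libraries on 5 of 5 days, though it did not pass at D4 (adjusted p = 0.811) or D9 (0.108). On a single day 22.9% to 28.2% of all genes lay so, and their share over all 5 days was not computed. At D12 it had 219 CPM with 10 nM and 214 CPM with 100 nM TBBPA, against 305 and 306 CPM with DMSO. At D18 the levels were 197 and 192 CPM with TBBPA, against 283 and 270 CPM with DMSO, and D28 gave 175 and 184 CPM, against 222 and 225 CPM. The gaps at these 3 days exceeded the spread within either pair. The log2 change was -0.50 ± 0.07 at D12 (adjusted p = 2.86e-05), -0.50 ± 0.07 at D18 (6.15e-05) and -0.32 ± 0.07 at D28 (0.00799). The TBBPA effect on Igf2r also differed between the 5 days (adjusted p = 0.0202). It was the only 1 of 9 members to pass that test (4 at an unadjusted p under 0.05), which 10.4% of all genes passed. That call was lost without D4 DMSO library 1 or 2, the D4 10 nM library, D12 DMSO library 2, the D12 100 nM library or D18 DMSO library 1 (adjusted p up to 0.0693), and the D28 call without DMSO library 1, DMSO library 2 or the 10 nM library (up to 0.0908).

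Igf1 did not pass at D12, with 3.43 and 3.90 CPM with TBBPA against 3.92 and 5.17 CPM with DMSO. At D18 it had 12.9 CPM with 10 nM and 8.31 CPM with 100 nM TBBPA, against 20.6 and 22.02 CPM with DMSO. At D28 the values were 33.1 and 28.4 CPM with TBBPA, against 48.5 and 50.2 CPM with DMSO. Both TBBPA libraries were below both DMSO libraries on each of these 3 days. The log2 change was -1.01 ± 0.16 at D18 (adjusted p = 0.000243), the largest fall of any member called with TBBPA, and -0.68 ± 0.15 at D28 (0.00609). The call at D18 held in all 13 alternatives. The call at D28 was lost without DMSO library 1, DMSO library 2 or the 100 nM library, and in limma on log2(FPKM + 0.1) (adjusted p up to 0.122).

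Igf2 had 2037 and 1785 CPM with TBBPA at D12, against 2621 and 2729 CPM with DMSO, and 2962 and 2236 CPM at D18, against 3906 and 4008 CPM. It fell at both days, by 0.49 (SE 0.14, adjusted p = 0.0242) and 0.61 (SE 0.14, 0.0116) on the log2 scale, and passed at no other day.

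Among the binding proteins, Igfbp5 had 756 CPM with 10 nM and 553 CPM with 100 nM TBBPA at D18, against 962 and 965 CPM with DMSO. At D28 the pairs overlapped, with 1155 and 941 CPM with TBBPA against 1094 and 1119 CPM. Igfbp7 had 45.9 and 27.7 CPM with TBBPA at D18, against 55.8 and 58.8 CPM with DMSO, and 116 and 130 CPM at D28, against 168 and 180 CPM. The 100 nM library was the lower of the TBBPA pair for both genes at D18. Igfbp5 fell by 0.56 (SE 0.15, adjusted p = 0.0268) and Igfbp7 by 0.64 (SE 0.16, 0.0199) on the log2 scale at that day, and Igfbp7 did not pass at D28 (-0.51 ± 0.15, 0.0515), but did in DESeq2 (0.0349). Without DMSO library 1, DMSO library 2 or the 100 nM library, 2 members passed at D18, and neither Igfbp5 (adjusted p up to 0.212) nor Igfbp7 (up to 0.154) was among them, nor did either pass in the compared libraries alone (0.061 and 0.25) or Igfbp5 in limma on log2(FPKM + 0.1). The changes of Igfbp5 and Igfbp7 were -0.35 and -0.32 without the 100 nM library, and that of Igfbp7 was -1.04 without the 10 nM library.

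Igfbp3 at D18 had 81.1 CPM with 10 nM and 47.3 CPM with 100 nM TBBPA, against 87.3 and 95.01 CPM with DMSO, and at D28 it had 112 and 93.0 CPM against 142 and 143 CPM. Igfbp4 had 290 and 233 CPM with TBBPA at D18, against 322 and 329 CPM. Neither gene passed at any single day in the fit reported. In a fit of the compared libraries alone, Igfbp3 passed at D12 (adjusted p = 0.000221) and D28 (0.0067). Igfbp4 passed in that fit at D12 (0.000545) and D18 (0.0482). Both had the TBBPA pair below the DMSO pair on 4 of 5 days, as 22.9% to 28.2% of all genes did on a single day. Without the 10 nM library their changes at D18 were -0.95 and -0.48. Igfbp2 and Irs4 did not pass at any day either, and Irs4 had both TBBPA libraries below on 2 days and above on 2. Igf1r fell at D28 alone, where it had 155 and 144 CPM with TBBPA against 172 and 177 CPM with DMSO (-0.22 ± 0.06, adjusted p = 0.0283). This call too was lost without DMSO library 1, DMSO library 2 or the 100 nM library (adjusted p up to 0.29), and in limma on log2(FPKM + 0.1) (0.0731).

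**Figure D3:**
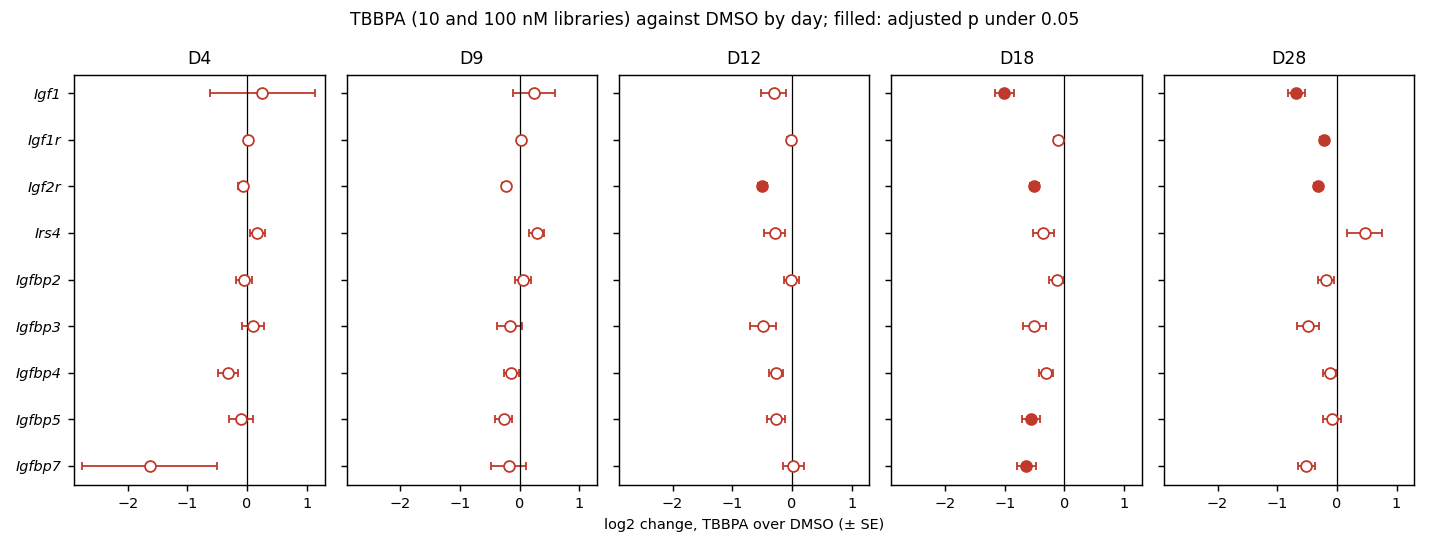
Log2 change of each gene with TBBPA over DMSO (points, bars ± SE), 1 panel per day, filled where the adjusted p was under 0.05. Filled points are all left of 0, and 1 is at D12 (Igf2r), 4 are at D18 and 3 at D28.

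By count, 1 of 9 members fell at D12, where 9.19% of all genes were called lower and 11.9% higher. At D18, 4 of 9 fell, against 4.56% lower and 5.96% higher, and at D28, 3 of 9 fell, against 3.44% lower and 3.65% higher. No member rose at these days. Both TBBPA libraries were below both DMSO libraries for 6 members at D12, 9 at D18 and 6 at D28, against 28.2%, 23.8% and 25% of all genes. The median log2 change of the members was -0.26 at D12, -0.50 at D18 and -0.22 at D28, and that of all genes was 0.029, 0.018 and 0.010. Rises made up 56.4% of the calls over all genes at D12, but 47.3% with DESeq2 size factors and 49.1% with scaling on library size alone. In a fit of the compared libraries alone, 4 members passed at D12 and 5 at D28, and at D28 no member passed without DMSO library 1 or DMSO library 2, and 1 without the 100 nM library.

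The starts of the 4 genes that fell together at D18 are shown as the 250 bases before the RefSeq transcription start (build GRCm38.p6, gene strand, 5′ to 3′), with matches to any of 5 short motifs in capitals. The windows are chr10:87860861-87861110 (plus strand) for Igf1, chr17:12769707-12769956 (minus strand) for Igf2r, chr1:72874866-72875115 (minus strand) for Igfbp5 and chr5:77408046-77408295 (minus strand) for Igfbp7. The motifs, searched on both strands, were TATAAA (a core promoter motif), GGGCGG (GC box), CACGTG (E-box), GCGTG (core of the site bound by the aryl hydrocarbon receptor) and TGANTCA (AP-1 site), and no match of one overlapped a match of another in these windows.
Igf1: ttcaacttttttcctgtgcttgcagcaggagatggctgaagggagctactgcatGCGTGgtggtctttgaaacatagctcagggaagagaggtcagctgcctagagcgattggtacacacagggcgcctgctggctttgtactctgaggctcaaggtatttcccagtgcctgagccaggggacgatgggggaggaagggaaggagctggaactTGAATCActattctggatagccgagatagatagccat
Igf2r: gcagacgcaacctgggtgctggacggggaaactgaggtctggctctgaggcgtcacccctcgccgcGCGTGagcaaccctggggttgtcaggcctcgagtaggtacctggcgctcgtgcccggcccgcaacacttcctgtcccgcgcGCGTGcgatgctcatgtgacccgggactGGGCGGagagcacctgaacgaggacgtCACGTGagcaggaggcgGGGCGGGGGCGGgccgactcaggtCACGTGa
Igfbp5: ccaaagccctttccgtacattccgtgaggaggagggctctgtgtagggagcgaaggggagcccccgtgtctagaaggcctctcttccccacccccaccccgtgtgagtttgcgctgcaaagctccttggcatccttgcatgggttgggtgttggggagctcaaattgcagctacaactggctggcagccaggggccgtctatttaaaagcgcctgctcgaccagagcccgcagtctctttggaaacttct
Igfbp7: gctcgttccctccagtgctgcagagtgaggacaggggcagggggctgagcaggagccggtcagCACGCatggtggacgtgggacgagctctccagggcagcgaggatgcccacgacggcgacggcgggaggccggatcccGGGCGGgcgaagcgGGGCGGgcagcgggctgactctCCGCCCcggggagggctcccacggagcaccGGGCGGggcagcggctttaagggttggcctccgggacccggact

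GCGTG was found in 3 of the 4 windows, those of Igf1, Igf2r and Igfbp7, GGGCGG in those of Igf2r and Igfbp7, CACGTG in that of Igf2r, and TGANTCA in that of Igf1, while the Igfbp5 window held none of the 5. Over the 10 windows of the 9 members (Igfbp2 has 2), GCGTG was present in 7, GGGCGG in 5, CACGTG in 3, TGANTCA in 2 and TATAAA in 1 (Igfbp4). Of 32851 mouse windows of the same length, 28.2% held GCGTG, 32.7% GGGCGG, 6.0% CACGTG, 6.7% TGANTCA and 12.4% TATAAA. The GC content was 52.8% for Igf1, 58.8% for Igfbp5, 69.2% for Igf2r and 74.0% for Igfbp7, against a median of 52.4% over all windows. A match is a description of the sequence and no evidence of binding.

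Over the 5 days together, with the day as a factor, 6 of 9 members fell in the mean of the 2 doses against DMSO and none rose, where 10.3% of 16242 genes were called lower and 11.7% higher. They were Igf1 (-0.65 ± 0.11, adjusted p = 0.00046), Igf2r (-0.33 ± 0.05, 9.83e-05), Igfbp3 (-0.31 ± 0.09, 0.0214), Igfbp4 (-0.22 ± 0.05, 0.00164), Igfbp5 (-0.27 ± 0.05, 0.00099) and Igfbp7 (-0.39 ± 0.10, 0.0102). Igf1r, Irs4 and Igfbp2 did not pass. Igfbp3 did not pass without D12, D18 or D28, nor Igfbp7 without D18, nor either with each DMSO pair summed to 1 library. Igf1 was at -0.36 in limma on log2(FPKM + 0.1) and did not pass there (0.0631). Igf2 fell as well (-0.40 ± 0.06, 0.000157).

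Taken alone over the days, 3 members fell with 10 nM TBBPA against DMSO, where 4.18% of all genes were called lower. These were Igf1 (-0.49 ± 0.14, adjusted p = 0.0272), Igf2r (-0.29 ± 0.06, 0.00414) and Igfbp4 (-0.18 ± 0.06, 0.0457), and no member passed when D18 was left out. With 10 nM, Igf1 also did not pass in DESeq2 (0.162), in limma (up to 0.37), without D28 and with summed DMSO pairs, and Igfbp4 without D4 or D12 and with summed pairs. At 100 nM, 6 members fell, against 8% of all genes: Igf1 (-0.80 ± 0.14, 0.000904), Igf2r (-0.37 ± 0.06, 0.000391), Igfbp3 (-0.42 ± 0.11, 0.0187), Igfbp4 (-0.27 ± 0.06, 0.0032), Igfbp5 (-0.40 ± 0.06, 0.000451) and Igfbp7 (-0.53 ± 0.12, 0.0083). Igfbp3 was not called at 100 nM without D12, D18 or D28 (0.0914 to 0.116), nor Igfbp7 without D18 (-0.34, 0.0935), nor either with summed DMSO pairs, and Igf1 not in limma on log2(FPKM + 0.1) (-0.47, 0.0609). The 2 comparisons share the DMSO libraries. As percent of the DMSO mean, Igf1 at D18 was at 60.4% with 10 nM and 39% with 100 nM, Igfbp7 at 80.2% and 48.5%, Igfbp5 at 78.4% and 57.3%, and Igf2r at 71.4% and 69.7%, each from 1 library.

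Set against each other, 100 nM and 10 nM TBBPA differed for 0 of 9 members, and for 0% of all genes tested (0 genes in edgeR, with 1037 at an unadjusted p under 0.05, and 8 genes in DESeq2, none of them a member). Igfbp5 was the 1 member with an unadjusted p under 0.05 (-0.25 ± 0.07 for 100 nM over 10 nM, adjusted p = 0.463), and its 95% interval ran from -0.41 to -0.10. For Igf1 the log2 difference was -0.30 (95% interval -0.66 to 0.05), for Igfbp7 -0.29 (-0.60 to 0.02), for Igfbp3 -0.23 (-0.50 to 0.05) and for Igf2r -0.07 (-0.22 to 0.07). The 100 nM library was below the 10 nM library for 5 of 9 members at D4, 6 at D9, 7 at D12, 8 at D18 and 5 at D28, against 46.5%, 48.7%, 48%, 54.2% and 51.7% of all genes. With these intervals a further fall at 100 nM was neither shown nor bounded closely for Igf1 and Igfbp7.

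**Figure D4:**
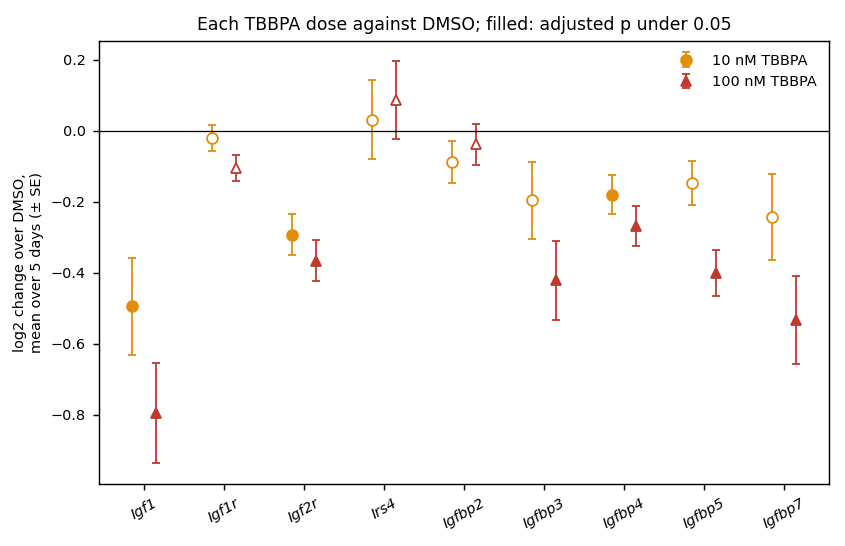
Log2 change over DMSO of each gene, averaged over the 5 days, for 10 nM (circles) and 100 nM TBBPA (triangles), with bars ± SE and filled symbols at an adjusted p under 0.05. The 100 nM point is the lower one for 7 of 9 genes, with Irs4 and Igfbp2 the exceptions.

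Of the 35 other pathway genes tested, none passed with TBBPA at D4 and 2 passed at D9, where 0.458% and 2.34% of all genes were called. The 2 were Pappa, higher at 59.1 ± 11 against 40.2 ± 0.04 CPM (0.56 ± 0.11, adjusted p = 0.0102), and Pik3cb, a PI3K catalytic subunit, lower (-0.30 ± 0.08, 0.0392). At D12, 6 rose and 5 fell, where 21.1% of all genes were called in either direction. Gab1, a docking protein of receptor kinases, fell to 192 ± 10 CPM with TBBPA, against 273 ± 2 CPM with DMSO (-0.51 ± 0.05, 9.14e-07), and Pik3cb to 38.8 ± 0.3 CPM, against 63.9 ± 0.6 CPM (-0.72 ± 0.08, 1.68e-06). Igfbpl1 rose at D12 to 52.2 ± 3.1 CPM, against 27.8 ± 0.3 CPM (0.91 ± 0.11, 4.21e-06), and at D18 to 104 ± 4 CPM, against 58.8 ± 1.9 CPM (0.83 ± 0.10, 1.51e-05). At D18, 1 rose and 4 fell, where 10.5% of all genes were called, including Pappa2 at 2.71 ± 0.15 against 5.96 ± 0.62 CPM (-1.13 ± 0.24, 0.00267), Htra1 at 40.5 ± 10.4 against 58.6 ± 1.6 CPM (-0.53 ± 0.12, 0.00526) and Foxo1, a transcription factor held in check by AKT (-0.37 ± 0.11, 0.0315). At D28, 3 rose and 3 fell, where 7.09% of all genes were called. Igfbp1, a binding protein best known from liver, had 98.1 ± 34.1 CPM with TBBPA against 51.0 ± 2.6 CPM with DMSO (0.94 ± 0.19, 0.00747), and Htra1 had 138 ± 4 against 205 ± 2 CPM (-0.57 ± 0.11, 0.00326). The median log2 change of the 35 genes was -0.03 at D12, -0.05 at D18 and -0.07 at D28, nearer to 0 than that of the members.

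Markers of cell types moved with TBBPA at these days and, fewer of them, at D4 and D9, where no member changed. At D4, 3 of 6 pluripotency and 1 of 6 endothelial markers fell, and at D9, 3 of 6 neuronal and 1 of 8 mesenchymal markers rose while 1 of 6 endothelial and 1 of 7 yolk sac and liver markers fell. Summed CPM of 8 mesenchymal markers (Col1a1, Col1a2, Col3a1, Dcn, Lum, Pdgfra, Postn and Thy1) was 1378 and 1646 with TBBPA against 2139 and 2227 with DMSO at D12, 2675 and 3969 against 5573 and 5882 at D18, and 9521 and 10259 against 14487 and 15069 at D28. Of these 8 genes, 5 fell at D12, 6 at D18 and 3 at D28, where 1 rose. Skeletal muscle markers (6 genes) summed to 7.05 and 10.8 CPM with TBBPA against 47.9 and 53.5 CPM with DMSO at D18, and to 20.7 and 45.9 against 90.4 and 96.2 at D28, and 5 of 6 fell at both days. The 6 neuronal markers all rose at D12 and D18, with sums of 632 and 674 CPM against 322 and 341 CPM at D12 and 1148 and 1229 against 746 and 770 at D18. Yolk sac and liver markers (7 genes) were lower at D12, with 549 and 624 against 1152 and 1176 CPM (4 fell), as were 2 of 6 endothelial and 5 of 6 pluripotency markers, while the remaining 1 of these 6 rose. In the control course the mesenchymal sum was 12.6 and 18.6 CPM in ES cells, 44.4 and 45.6 at D4, with Lum at 0, and 628 and 638 at D9. It climbed over the same days as Igf1 and most Igfbp members, although 7 of its 8 genes rose and 1 fell at each of the steps to D9, D12 and D18. The climb was not particular to this list: the neuronal sum averaged 41.7 CPM at D4, 119 at D9, 332 at D12 and 758 at D18, before 135 at D28. The part of these cell types in the changes of the IGF axis was not tested.

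**Figure D5:**
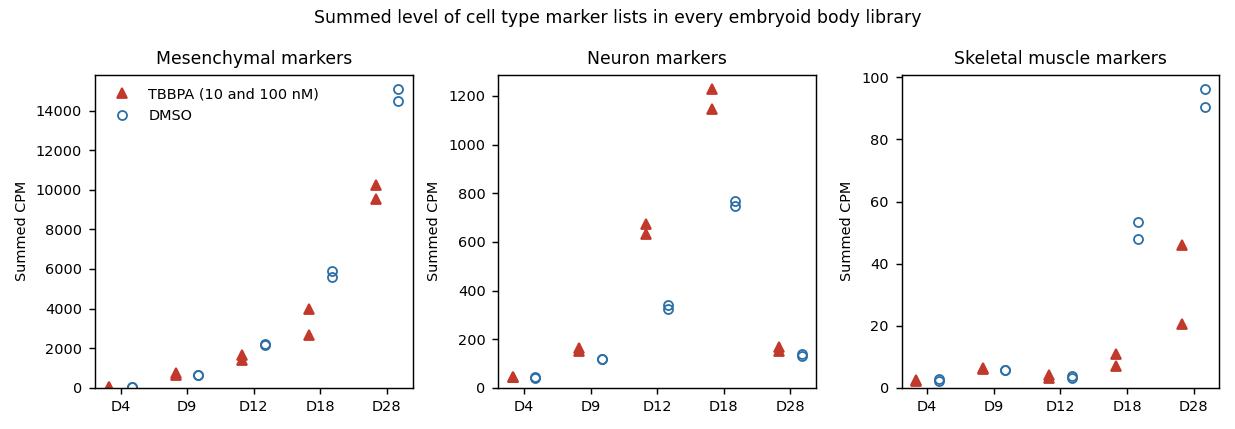
Summed CPM of 3 marker lists in every EB library by day, TBBPA as filled triangles and DMSO as open circles. At D18 the TBBPA libraries lie below the DMSO libraries for mesenchymal and skeletal muscle markers and above them for neuronal markers.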

How the data were processed

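Each library had 1 deposited table with an expected count and an FPKM value per gene. Per the file headers, the authors estimated an expected count of reads for each gene (64.9 to 66.7% of these were exactly whole, with no tolerance), and the FPKM values were deposited beside them. Alignment used HISAT and Bowtie2 with build GRCm38.p5, per the submitters' processing notes, and no counting tool is given in the sources used here. Genes that a table does not list were set to 0. Counts were rounded and fitted in R 4.3.3 with edgeR 4.0.16 (TMM scaling, filterByExpr with a minimum count of 10 and a minimum total of 15, robust quasi-likelihood F tests). Control steps were fitted in the 12 control libraries (6 residual degrees of freedom), TBBPA by day in all 22 (11), and doses in the 20 EB libraries with the day as a factor (13). Groups and replicate numbers came from the titles. Counting intervals are 95% Clopper-Pearson intervals and cover counting error only, and dose intervals use the SE with 13 degrees of freedom.

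The members and lists were chosen with earlier results of these data known. Besides the members, the rule for names took at most 4 pathway genes of smallest p among those that passed in a comparison and the best-matching genes of each member's log2 CPM (mean of at least 2). Alternatives were DESeq2 1.42.0, limma 3.58.1 on log2(FPKM + 1) or log2(FPKM + 0.1), other scalings and filters, the compared libraries alone, the replicate number as a block, no day term, summed DMSO pairs, and leaving out libraries or days. On simulated counts, TBBPA against DMSO at D18 recovered 71.6% of genes changed 1.5-fold and 94% of those changed 2-fold among 16383 genes, and the test of the TBBPA effect differing between days recovered 46.3% and 74.6% of such genes when they changed at D18 alone. Unchanged genes made up 4.35% and 7.84% of the calls in these 2 tests, 8.38% at D18 over D12, 6.7% for the mean of the doses and 2.12% between doses. Apart from the change put in, each simulated gene had 1 mean level in all libraries, unlike members that move over the course. The changed genes were drawn only from genes with a mean of at least 1 CPM, so recovery of lower genes was not measured. Promoter sequences are from RefSeq (GRCm38.p6), whose symbols matched all 9 members, and overlaps from GENCODE. Plots were made in Python 3.11.15 with matplotlib 3.10.9.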

Additional observations from a re-analysis of the deposited data

Results flagged for a closer look

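The TBBPA effect on Igf2r differed between the 5 days in edgeR's test over all genes (adjusted p = 0.0202). Its log2 change with TBBPA was -0.07 ± 0.07 at D4, -0.23 ± 0.07 at D9, -0.50 ± 0.07 at D12, -0.50 ± 0.07 at D18 and -0.32 ± 0.07 at D28. The adjusted p of the difference lay between 0.000737 and 0.0693 over 28 alternatives and was under 0.05 in 22 of them.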

How the results depend on the processing

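Of 57 member values that passed, 30 kept their call in every alternative, 27 of 33 in the control steps and 3 of 24 with TBBPA. No called value changed sign. These shares are no like comparison of robustness. The TBBPA calls include 6 for the mean of the doses, 3 for 10 nM and 6 for 100 nM. For these, the alternatives include a fit without the day term, which called 0 of all genes tested. Igf2r, Igfbp4 and Igfbp5, for the mean and for 100 nM, were lost in that fit alone (14 of 15 alternatives kept). Igf2r for the mean was at -0.36 there, against -0.33 in the fit reported. Of 70 values that did not pass, 17 changed sign in at least 1 alternative, 36 times in all, and 0 of these sign changes passed. The replicate number as a block gave 8, 7, 7, 5 and 7 members at the 5 control steps in turn, against 8, 7, 7, 5 and 6 without it. No paired analysis was possible for TBBPA by replicate number because each dose has 1 library a day, while the day entered the dose fits as a factor. Same-numbered libraries did not deviate together: 1 of 15 correlations of their deviations was over 0.1 (range -0.129 to 0.169).

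With TBBPA at D4, limma on log2(FPKM + 0.1) called 1 member in place of 0. The compared libraries alone gave 4 in place of 1 at D12 and 5 in place of 3 at D28, where limma on log2(FPKM + 0.1) gave 1. Limma on log2(FPKM + 1) gave 2 in place of 1 for the difference between days, with or without its filter. Without the day term 0 members passed for the mean of the doses, 10 nM and 100 nM, in place of 6, 3 and 6, since the spread between days then enters the residual. For 10 nM, 1 member passed in limma without its filter and 1 with summed DMSO pairs. Leaving out 1 library or day gave 0 to 1 members at D9, 2 to 6 at D18, 0 to 2 at D28, 0 to 4 for the difference between days, 4 to 6 for the mean of the doses, 0 to 3 for 10 nM and 4 to 7 for 100 nM. Except for the explanation given, the cause of these shifts was not tested.

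Over all genes, the alternatives gave 3236 to 8056 calls at D12 over D9 (5361 in the fit reported). With TBBPA they gave 1 to 663 at D4 (75), 93 to 576 at D9 (383), 1718 to 5223 at D12 (3452), 735 to 1970 at D18 (1723), 231 to 1482 at D28 (1162) and 1015 to 2222 for the difference between days (1708). They gave 0 to 3628 for the mean of the doses (3566), 0 to 1867 for 10 nM (1556), 0 to 2611 for 100 nM (2529) and 0 to 8 between doses (0). Scaling on library size alone made 64.6% of the calls at D9 over D4 rises in place of 52.5%, 65.6% in place of 52.8% at D12 over D9, 38.6% in place of 51.5% with TBBPA at D28, 43.1% in place of 53.3% for the mean of the doses, and 45.8% in place of 56.4% for 10 nM. By construction, the pseudocount shrinks log2 changes of low genes in limma. At these depths Igf1 up to D4, Irs4 in ES cells and Igfbp7 at D4 rest on under 20 counts a group, as does Pappa, no member, at D4.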
